A study of Mus musculus with 6 samples.

Results

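MicroRNA genes were examined on whole-transcript arrays of presomitic mesoderm, the unsegmented tail tissue of the embryo that buds off somites, from mice lacking Taf10 in that tissue and from controls. A probe set (the group of probes that reads one transcript) was a member when its only platform gene symbol began with Mir and a digit or with Mirlet7. That rule gave 160 probe sets, one per gene, of 18064 in all and of 16311 with a single gene symbol. It also took in Mir17hg, the long host transcript of the miR-17-92 cluster. Another 22 microRNA probe sets carried several symbols and were not members.

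The study compared 3 control arrays with 3 mutant arrays, each hybridised with RNA pooled from 3 presomitic mesoderms of 17 to 19 somites at embryonic day 9.5. Control embryos are labelled WT and were Taf10Flox/+ or Taf10flox/flox, so they too carried floxed alleles, and the labels give no Cre for them. Mutant embryos were TCre/+;Taf10flox/flox, in which Cre recombinase under the control of the T (brachyury) gene acts in the mesoderm of the primitive streak and its descendants. Taf10 encodes a subunit shared by TFIID and SAGA, complexes that help RNA polymerase II start transcription. The replicates are separate pools, named as biological by the labels, and every test below is set against the spread among them.

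MicroRNAs are short RNAs that pair through a seed near their 5′ end with messenger RNAs and lower their output. They are cut from long primary transcripts, first by Drosha with Dgcr8 in the nucleus and then by Dicer1 in the cytoplasm, and many lie inside the introns of protein-coding host genes. The whole-transcript labelling used here reads primary transcripts, hairpins or overlapping host RNA, so a probe set named for a microRNA gives no level of the mature microRNA.

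Only 2 of the 160 microRNA probe sets, Mir717 and Mir708, passed the test, and both were lower in the mutant. Their mature sequences are shown because the comparison turns on them, together with miR-28a-5p, which shares a seed with miR-708-5p. Sequences are RefSeq's, 5′ to 3′, build GRCm38.p6, with the seed (bases 2 to 8) in capitals.
mmu-miR-717: cUCAGACAgagauaccuucucu
mmu-miR-708-5p: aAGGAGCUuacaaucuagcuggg
mmu-miR-708-3p: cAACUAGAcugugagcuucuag
mmu-miR-28a-5p: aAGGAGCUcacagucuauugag

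The hairpin of Mir717 follows, as it is the called microRNA gene whose level stood clear of background, with the mature stretch in capitals. It spans 109 bases on the minus strand at chrX:52422407-52422515, inside the span of Gpc3.
Mir717: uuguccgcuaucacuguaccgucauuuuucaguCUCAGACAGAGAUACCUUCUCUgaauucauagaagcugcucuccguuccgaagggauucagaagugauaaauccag

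The most negative differences, none passing the test, lay in the miR-17-92 cluster, which is known for promoting growth and survival in the embryo. Its members and their relatives at the Mcm7 locus fall into groups by seed, and these sequences are shown because both loci share seeds and are set side by side below.
mmu-miR-17-5p: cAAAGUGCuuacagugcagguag
mmu-miR-20a-5p: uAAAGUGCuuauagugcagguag
mmu-miR-93-5p: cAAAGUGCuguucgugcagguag
mmu-miR-106b-5p: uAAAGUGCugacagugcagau
mmu-miR-18a-5p: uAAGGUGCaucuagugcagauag
mmu-miR-19a-3p: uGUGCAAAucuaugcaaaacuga
mmu-miR-19b-3p: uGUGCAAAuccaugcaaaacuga

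The let-7 family is shown because Lin28a, whose protein blocks let-7 maturation, was among the genes that fell. Let-7 microRNAs rise as cells differentiate, and miR-98 carries the same seed.
mmu-let-7d-5p: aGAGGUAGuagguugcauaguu
mmu-let-7e-5p: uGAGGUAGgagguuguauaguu
mmu-let-7f-5p: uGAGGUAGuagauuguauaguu
mmu-let-7i-5p: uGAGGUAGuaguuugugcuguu
mmu-miR-98-5p: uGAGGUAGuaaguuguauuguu

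Array medians ranged from 308 to 318 intensity units. Of the probe sets paired with Taf10, the one whose array numbering places it among genes of chromosome 7, where Taf10 lies (9 of 10 neighbours), read log2 8.95, 8.89 and 8.79 in controls and 8.85, 8.93 and 9.19 in mutants, which overlapped (log2 0.11, limma adjusted p = 0.530). The other, with 0 of 10 neighbours on chromosome 7, read 10.77, 10.61 and 10.69 in controls and 10.40, 10.37 and 10.18 in mutants and fell (log2 -0.37, limma adjusted p = 0.0400). The sources do not say whether either reads the floxed stretch, so Taf10 gave no check of the labels. Of 8 presomitic mesoderm markers, 7 were measured, and all 7 stood above the background reference defined below. Of these, 2 were called higher and 1 lower in the mutant, against 2.88% and 3.08% of all single-symbol probe sets. Their summed level ran from log2 14.35 to 14.42 in controls and from 14.58 to 14.67 in mutants. The summed level of 4 blood genes ran from log2 13.14 to 14.43 in controls and from 11.87 to 13.99 in mutants, and 3 of the 4, all but Gata1, were above that reference. That of 4 endothelial genes ran from 9.0 to 10.46 and from 8.74 to 10.01, with Cdh5 alone above it, and 1 of 3 neural tube genes was above it. Their part in the results below was not tested. In pooled tissue, fewer cells of a type and less RNA per cell cannot be told apart.

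Most microRNA probe sets sat low. A background reference was taken from 293 probe sets for olfactory and vomeronasal receptors, genes of sensory neurons, whose mean over the 6 arrays had a median of log2 6.11. A member counted as above background when its own mean exceeded the 95th percentile of these receptors, log2 7.54 or an intensity of 186. Of the 160 members, 63 did so (39.4%, against 63.0% of all single-symbol probe sets), and 128 exceeded the receptor median. Member levels ran from log2 5.40 to 11.24 with a median of 7.16. The remaining 97 members have values, but their level cannot be told from that of receptor genes.

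The probe sets with the brightest signal were Mir692-1 (mean log2 11.24), Mir505 (10.76), Mir717 (10.36), Mir346 (9.87), Mir598 (9.72), Mir7-1 (9.67) and Mir680-3 (9.59). Because probes differ in how strongly they bind, this order does not rank the genes by abundance. For Mir692-1 the 6 arrays lay between 11.10 and 11.32 and the groups overlapped. Other copies of Mir692 are paired on the platform with the ferritin gene Ftl1, so the RNA behind the Mir692-1 signal is uncertain. Mir505 spread more widely, with controls at 10.84, 10.34 and 10.94 and mutants at 10.64, 10.62 and 11.15, and its control and mutant values overlapped.

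**Figure D1:**
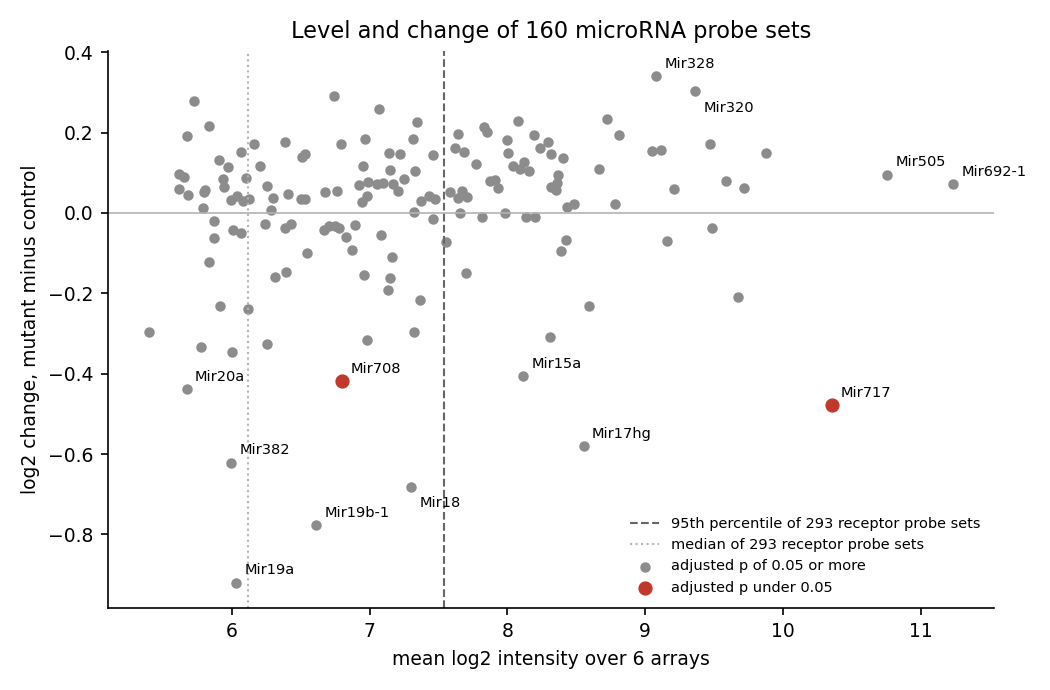
Each point is one of 160 microRNA probe sets, with its mean log2 intensity over 6 arrays on the horizontal axis and its log2 change, mutant minus control, on the vertical axis. Vertical lines mark the median and the 95th percentile of 293 receptor probe sets, and the 2 red points, Mir717 and Mir708, passed the limma test, one on each side of the 95th percentile.

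In the comparison of mutant with control, few microRNA probe sets were called, while their changes were about as large as those of all probe sets. The median size of a log2 change was 0.10 among members and 0.11 over all probe sets. Of the 160 members, 2 were called at a limma adjusted p under 0.05, which is 1.25% of members against 5.96% of all 16311 probe sets tested. Of these, 0 were higher, against 2.88% of all probe sets, and 2 were lower, against 3.08%. At an unadjusted p under 0.05, 5 members were higher and 13 lower (11.3% of members, against 22.8% of all probe sets), where 11.4% of all probe sets were higher and 11.4% lower. The control and mutant values did not overlap for 23 members, which is 14.4% of members against 32.4% of all probe sets. In 11 of them all mutants lay above the controls, against 16.6% of all probe sets, and in 12 all mutants lay below, against 15.7%. Among probe sets at or below the background reference 1.97% were called, and above it 8.30%.

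The median log2 change of members was 0.05, against 0.03 over all probe sets, with 106 members positive and 54 negative. The share of positive differences was 66.3% among members and 58.0% over all probe sets. At or below the background reference it was 59.8% among members and 75.9% among other probe sets. Above the reference it was 76.2% among members and 47.4% among other probe sets. The count of 106 depended on scaling and on single arrays. It was 87 after quantile normalization, 79 once each array's trend with level was removed and 86 with array weights. It was 85 without control 1 and 89 without mutant 3. Changes ranged from -0.92 to 0.34. Of the 160 members 5 were at 0.5 or more in size, against 572 of all 16311 probe sets. These 5 were Mir19a, Mir19b-1, Mir18, Mir382 and Mir17hg, all negative and none passing the test. The 95% confidence interval lay within a log2 change of 0.5 in either direction for 134 of 160 members, against 13583 of all 16311 probe sets. In data simulated from the spread seen here, a log2 change of 0.5 was recovered for 82% of 50 probe sets and one of 0.25 for 2%. A log2 difference near 0.25 would thus mostly go uncalled in such data with 3 arrays a group. The simulation changed fewer probe sets than the 972 called here and held no effects shared within an array. Its rates are therefore approximate. As another class of short noncoding RNA genes on the same arrays, 22 of 55 small nucleolar RNA probe sets were called, all lower, with a median of -0.61.

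Mir717 gave the clearest difference. Its control arrays read log2 10.62, 10.70 and 10.48, and its mutant arrays 10.07, 10.02 and 10.27. All 3 mutants lay below all 3 controls, mutant 3 being the closest to them. The change was -0.48 (SE 0.09, 95% interval -0.69 to -0.27, limma adjusted p = 0.0258), or 71.8% of the control level, and no receptor probe set was as bright. The call was lost without control 1, control 2, mutant 1 or mutant 2 (limma adjusted p from 0.0709 to 0.131), and held without control 3 (0.0499) or mutant 3 (0.00427).

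Mir717 lies on the strand of Gpc3 and within its span, chrX:52272426-52613974. Gpc3 encodes glypican 3, a cell-surface proteoglycan that restrains growth. The reference table gives gene spans without exons, so whether the hairpin is intronic was not determined here. Gpc3 itself read 12.96, 12.97 and 12.89 in controls and 12.97, 12.93 and 12.71 in mutants. These values overlapped, and the change of -0.07 (SE 0.08, limma adjusted p = 0.641) became 0.00235 after quantile normalization and 0.00964 without mutant 3. Within each array, the difference Mir717 minus Gpc3 was -2.34, -2.27 and -2.41 in controls and -2.90, -2.91 and -2.45 in mutants. All 3 mutant differences were lower, by 0.41 in the mean (exact permutation test, two-sided, p = 0.1, adjusted over 10 such pairs 0.143), and 3 arrays against 3 cannot give less than 0.1. As this pair was taken because Mir717 was called, the shift was partly built in and the test decides nothing. Of 11 members of the X-linked Mir322 cluster list, in which Mir717 was placed, it was the one measured.

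Mir708 lay lower on the scale. Its controls read log2 6.94, 7.17 and 6.92 and its mutants 6.64, 6.53 and 6.61, with every mutant below every control. The change was -0.42 (SE 0.08, 95% interval -0.61 to -0.22, limma adjusted p = 0.0315), or 74.8% of the control level. Its mean of 6.80 was below the background reference, and 55 of 293 receptor probe sets were as high or higher. It was therefore not tested where low probe sets were left out first. Leaving out any one array other than mutant 3 ended the call (limma adjusted p from 0.0654 to 0.125), and without mutant 3 it was 0.0169.

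Mir708 sits at chr7:96249424-96249532, on the strand of Tenm4 and within its span, chr7:96171244-96911093, which encodes a teneurin, a transmembrane protein required for gastrulation in the mouse. Tenm4 read 10.62, 10.57 and 10.53 in controls and 10.30, 10.26 and 10.37 in mutants. All mutants were below all controls, and the change of -0.26 (SE 0.06, limma adjusted p = 0.0549) did not pass. The difference Mir708 minus Tenm4 within arrays differed by -0.16 (exact permutation test, two-sided, p = 0.200, adjusted 0.250), and control and mutant differences overlapped. This pair was likewise taken because its microRNA probe set was called, so that test decides nothing. Mir28a, the other measured gene with the AGGAGCU seed of miR-708-5p, had a log2 difference of 0.04 at a mean below the receptor median.

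**Figure D2:**
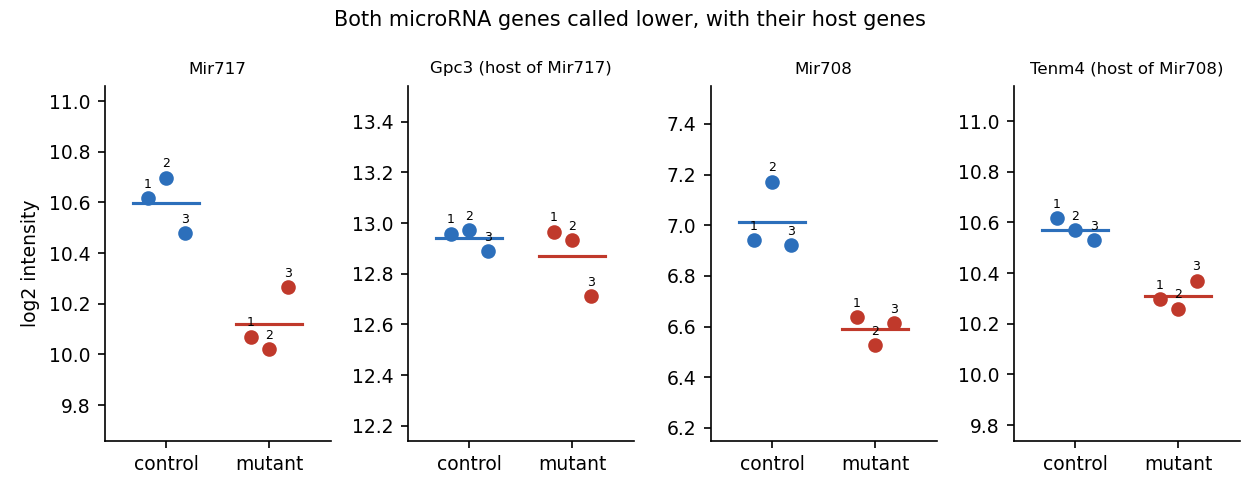
Points are the log2 intensities of Mir717, Gpc3, Mir708 and Tenm4 on the 6 arrays, numbered by replicate, with control arrays in blue, mutant arrays in red and a bar at each group mean. Each panel has its own vertical range of equal height, and the groups separate for Mir717, Mir708 and Tenm4 but overlap for Gpc3.

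The miR-17-92 cluster on chromosome 14 gave the most negative mean differences, with a wide spread between arrays. Its 6 probe sets were all negative, with a median of -0.63, and 0 were called. At an unadjusted p under 0.05 by limma, 3 of the 6 were lower, against 11.4% of all probe sets. Only Mir17hg, named for the host transcript, stood above the background reference. Its reference span, chr14:115044390-115046728, starts at the end of Mir19b-1 and contains none of the other cluster hairpins measured here. Mir17hg read 8.98, 8.97 and 8.58 in controls and 8.55, 8.45 and 7.78 in mutants, so the groups met without overlapping. Its change was -0.58 (SE 0.20, limma adjusted p = 0.140).

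Mir19a, one of a pair of genes for the miR-19 seed GUGCAAA, read 6.74, 6.87 and 5.85 in controls and 6.18, 6.02 and 4.51 in mutants. Control 3 lay below mutants 1 and 2, and the change of -0.92 (SE 0.44, limma adjusted p = 0.267) was -0.39 without mutant 3. Mir19b-1, the other gene of that seed, read 7.08, 7.42 and 6.49 in controls and 6.69, 6.20 and 5.77 in mutants, a change of -0.78 (SE 0.28, limma adjusted p = 0.144) with overlap at control 3. Mir18 read 7.72, 7.80 and 7.41 against 7.87, 7.24 and 5.78, and its change of -0.68 (SE 0.45) was -0.09 without mutant 3, which alone lay far below the rest.

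Mir20a read 5.87, 6.20 and 5.6 against 5.57, 5.47 and 5.31, without overlap (log2 -0.44, SE 0.14, limma adjusted p = 0.121). Mir17 had a log2 difference of -0.16 (SE 0.09) with overlapping groups. Across the cluster, control 3 was the lowest control for 6 of 6 probe sets and mutant 3 the lowest mutant for 5 of 6. With control 3 and mutant 3 both left out, an alternative chosen after the data were seen, Mir17hg (log2 -0.48, limma adjusted p = 0.00519), Mir19a (-0.71, 0.00314), Mir19b-1 (-0.80, 0.0245) and Mir20a (-0.51, 0.0236) were called. With arrays weighted by their quality, Mir17hg (limma adjusted p = 0.0138), Mir19b-1 (0.0144) and Mir20a (0.0121) passed as well. Over all probe sets, 14.2% were called without control 3 and mutant 3 and 24.1% with array weights, against 5.96% with all arrays weighed alike. The absence of calls in this cluster thus depends on how the arrays are weighed, as it does for many other probe sets.

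**Figure D3:**
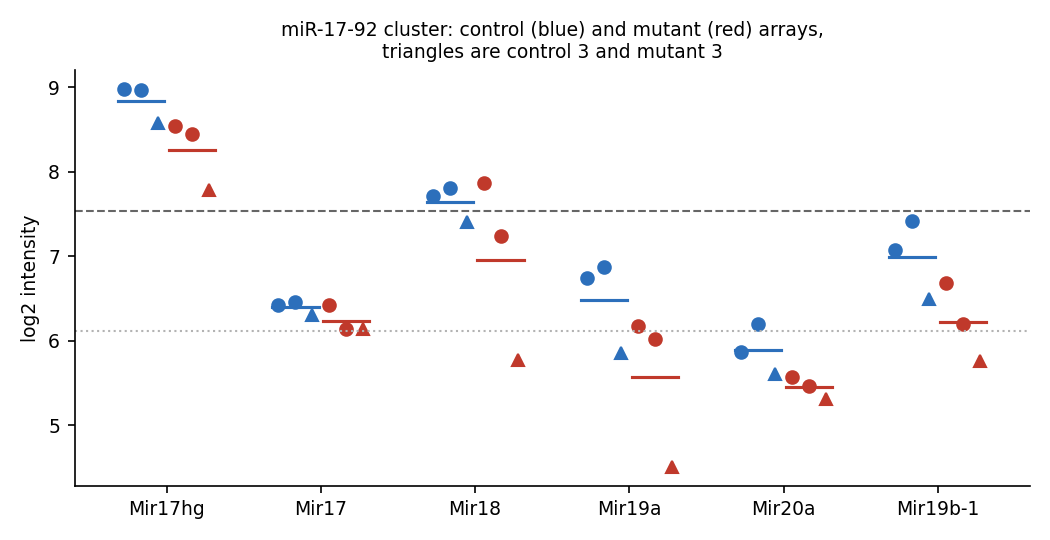
Log2 intensities of the 6 probe sets of the miR-17-92 cluster, with control arrays in blue, mutant arrays in red, triangles for control 3 and mutant 3, and bars at group means. The dashed and dotted lines mark the 95th percentile and the median of the receptor probe sets; only Mir17hg lies above the dashed line in all arrays, and mutant 3 is lowest in 5 of 6.

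At the Mcm7 locus, which holds relatives of this cluster, the host gene fell and the microRNA probe sets were not called. Mir25, Mir93 and Mir106b lie inside Mcm7, which encodes a subunit of the replicative helicase, and miR-93-5p and miR-106b-5p share the AAAGUGC seed of miR-17-5p and miR-20a-5p. Mcm7 fell by 0.34 on the log2 scale (limma adjusted p = 0.0319), from 11.76, 11.67 and 11.72 to 11.44, 11.40 and 11.29. None of the 3 microRNA probe sets passed the test: the log2 difference was 0.02 for Mir25, 0.12 for Mir93 and 0.07 for Mir106b, with overlapping groups in each, and Mir106b was not above the background reference. The difference from Mcm7 within arrays was higher in all 3 mutants for each of them, by 0.36, 0.46 and 0.41 (exact permutation test, two-sided, p = 0.1 each, adjusted 0.143), which did not pass and is the smallest p this design allows. As these pairs were taken because Mcm7 was called, the shift was partly built in and the test decides nothing.

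Across all host genes, 72 members lay within a gene on the same strand, and 53 of these had a measured host. They made 54 pairs with 43 hosts, of which 2 were called higher and 2 lower by limma. These 4 are 9.30% of the hosts, close to the 8.30% called among all probe sets above the background reference, where 37 of the 43 hosts lay, and against 5.96% of all probe sets. The hosts that rose were Spaca6 (log2 0.33, adjusted p = 0.0271), known for sperm and egg fusion, and Hoxd3 (0.37, adjusted p = 0.0405), a Hox gene of axial patterning. The hosts that fell were Mcm7 and Fgf13 (log2 -0.62, adjusted p = 0.0294), a fibroblast growth factor relative that acts inside cells. None of their microRNA probe sets was called. The log2 difference was 0.06 for Mir99b, 0.08 for Mirlet7e and 0.15 for Mir125a, all in Spaca6, -0.33 for Mir10b in Hoxd3 and 0.05 for Mir504 in Fgf13. Mir10b (SE 0.28), which was not above the background reference, also lay within Hoxd4, whose change of 0.12 did not pass (limma adjusted p = 0.279).

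Fgf13 read 8.79, 8.72 and 8.77 in controls and 8.07, 7.92 and 8.43 in mutants, while Mir504 read 7.52, 7.72 and 7.69 against 7.58, 7.73 and 7.78. The host values separated and the microRNA values overlapped, and their difference within arrays was higher in the mutants by 0.68 (exact permutation test, two-sided, p = 0.1, adjusted 0.143). This pair too was taken because its host was called, so that test decides nothing. The calls of Mcm7, Fgf13, Spaca6 and Hoxd3 were each lost without control 1, control 2, control 3, mutant 1 or mutant 2 (limma adjusted p from 0.0614 to 0.176) and held without mutant 3 (0.000996 to 0.0139). Over the 54 pairs, 34 had the same sign, and the changes of host and member had a Pearson correlation of 0.15 and a Spearman correlation of 0.29, as a description of pairs that share arrays and partly share hosts. For the 18 pairs in which the microRNA probe set was above the background reference, the Spearman correlation was 0.52.

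**Figure D4:**
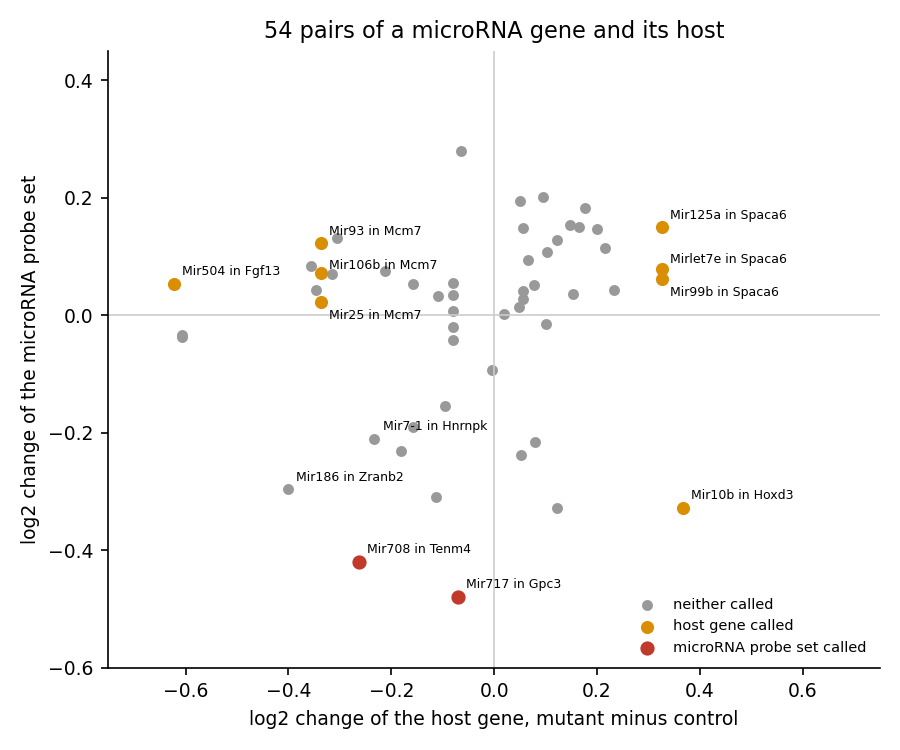
Each point is one of 54 pairs of a microRNA probe set and its host gene, with the log2 change of the host on the horizontal axis and that of the microRNA probe set on the vertical axis, both mutant minus control. Pairs with a called host (orange) lie within 0.33 of 0 on the vertical axis, and the 2 called microRNA probe sets (red) lie lowest.

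The let-7 family showed no difference that passed the test. Of its 4 measured members 0 were called, against 5.96% of all probe sets, and 0 had an unadjusted p under 0.05 by limma, against 22.8%. Of the 4, 3 stood above the background reference. The log2 difference was 0.08 for Mirlet7e, -0.01 for Mirlet7i and -0.01 for Mirlet7d, and the last varied from -0.157 to 0.141 when single arrays were left out. Mirlet7f-1, the dimmest of all members, read 5.73, 5.67 and 5.23 against 5.37, 5.38 and 4.99 (log2 -0.30, limma adjusted p = 0.304). Mir98, which lies in Huwe1 and shares the GAGGUAG seed, read 6.21, 6.29 and 6.19 against 6.08, 5.95 and 5.95 near the receptor median. Its groups did not overlap, but the change of -0.24 (SE 0.07, limma adjusted p = 0.0874) did not pass, and that of Huwe1 was 0.05.

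Genes of the microRNA pathway itself gave 33 measured of 34 listed, with 0 called higher and 3 lower (9.09%, against 5.96% of all probe sets). This is close to the 8.30% called in either direction among all probe sets above the background reference, where 32 of the 33 lay. Of 10219 non-microRNA probe sets above that reference, 455 were called lower. Lin28a, an RNA-binding protein of early embryonic cells that blocks let-7 maturation, read 10.77, 10.83 and 10.87 in controls and 10.56, 10.39 and 10.24 in mutants. The groups were separate, and it fell by 0.42 on the log2 scale (SE 0.09, limma adjusted p = 0.0374) to 74.6% of control. Trim71, a ubiquitin ligase that let-7 represses, read 10.28, 10.30 and 10.42 against 10.07, 10.03 and 10.04 and fell by 0.29 (SE 0.07, limma adjusted p = 0.0438). Its call was lost after quantile normalization (limma adjusted p = 0.0679).

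Prkra, which binds double-stranded RNA and partners Dicer1, read 9.36, 9.31 and 9.26 against 8.99, 8.96 and 8.80. It fell by 0.40 (SE 0.07, limma adjusted p = 0.0245) to 76.0% of control. The calls of Prkra and Lin28a ended without control 1, 2 or 3 or mutant 2 (limma adjusted p from 0.0603 to 0.126 and from 0.0951 to 0.159). That of Trim71 ended without any one array except mutant 3 (0.0962 to 0.160). Lin28b, the relative of Lin28a, read 9.60, 9.74 and 9.5 against 9.14, 9.16 and 8.28 (log2 -0.75, limma adjusted p = 0.0886). Ago3, an Argonaute protein that carries microRNAs, read 9.53, 9.44 and 9.39 against 9.84, 9.77 and 9.64 (log2 0.30, limma adjusted p = 0.0642).

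The core processing enzymes did not pass the test. The log2 difference was 0.05 (95% interval -0.10 to 0.21) for Drosha, which cuts primary transcripts, and -0.09 (-0.29 to 0.10) for its partner Dgcr8. It was 0.02 (-0.11 to 0.15) for the exporter Xpo5 and -0.09 (-0.29 to 0.11) for Dicer1. Over the 33 genes, 11 were positive and 22 negative, with a median of -0.10. At an unadjusted p under 0.05 by limma, 9 were lower and 1 higher, or 30.3% in either direction. That share was 29.9% among non-microRNA probe sets above the background reference and 22.8% over all probe sets. Of all probe sets, 11.4% were lower and 11.4% higher. Of the 10219 non-microRNA probe sets above the background reference, 1664 were lower and 1387 higher.

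The imprinted Meg3 to Mirg region of chromosome 12, transcribed from the maternal copy, held the largest group of members. Of its 20 probe sets 0 were called by limma, against 5.96% of all probe sets, and 11 stood above the background reference. The differences were positive in 8 and negative in 12, where 58.0% of all probe sets were positive. At an unadjusted p under 0.05 by limma, 3 were lower and 1 higher, where 11.4% of all probe sets were lower and 11.4% higher. Mir382 read 6.52, 6.47 and 5.93 against 5.85, 5.71 and 5.48, just without overlap and below the receptor median in the mean (log2 -0.62, SE 0.17, limma adjusted p = 0.0703). It passed with array weights (limma adjusted p = 0.00404) and without control 3 (0.0303), where 24.1% and 2.16% of all probe sets were called. Mir337, the one member of the region higher at an unadjusted p under 0.05, read 6.98, 6.95 and 6.88 against 7.14, 7.11 and 7.34 (log2 0.26, limma adjusted p = 0.106). The long transcripts of the region, Meg3 (log2 -0.22, limma adjusted p = 0.0779) and Rian (-0.61, 0.0745), and the paternally expressed Dlk1 (-0.28, 0.0820), did not pass. The brightest members here, Mir341 and Mir667, had log2 differences of -0.04 and 0.17.

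Other groups held few measured members. Of the 6 Hox cluster microRNAs 5 were measured, with changes from -0.33 (Mir10b) to 0.07 (Mir196b) and 0 called, although 3 were above the background reference. Of 10 p53-linked microRNAs 5 were measured and 0 called. Over all probe sets, 5.96% were called. Mir34b, a direct target of p53, had a log2 difference of -0.04. Mir15a, known for restraining the cell cycle and BCL2, read 8.43, 8.49 and 8.04 against 8.06, 8.05 and 7.63. Control 3 fell within the mutant range, and the change was -0.41 (SE 0.15, limma adjusted p = 0.164). With array weights, under which 24.1% of all probe sets were called, the limma adjusted p was 0.0338.

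Of 9 mesenchymal microRNAs 3 were measured. Among them, Mir145a, a smooth muscle microRNA, had a log2 difference of -0.33 (limma adjusted p = 0.113) at a level below the receptor median. Mir483, which lies in Igf2, had a log2 difference of 0.20 and Igf2 of 0.05. Of 9 muscle and 14 pluripotency microRNAs, none was measured as a member. Among microRNAs of other cell types, 5 neural, 2 blood or endothelial and 3 epithelial or liver members were measured. Of these 0 were called, against 5.96% of all probe sets, and 0 had an unadjusted p under 0.05 by limma, against 22.8%. Only Mir150 of these members stood above the background reference, at log2 7.64.

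The most positive differences were smaller and did not pass either. Mir328 read 8.71, 9.0 and 9.01 against 9.15, 9.09 and 9.5 (log2 0.34, SE 0.13, limma adjusted p = 0.163). Mir320, whose precursor is made without Drosha, read 8.99, 9.28 and 9.36 against 9.5, 9.45 and 9.58 (log2 0.30, SE 0.10, limma adjusted p = 0.124). In both, all mutants lay above all controls and control 1 was the lowest array. The log2 difference was 0.29 for Mir155 and 0.28 for Mir491, both below the background reference.

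The base composition of the hairpins moved with these differences. Of the 160 members, 133 had a hairpin in the RefSeq table, with a median GC content of 53.3% (33.8% to 69.2%). The Spearman correlation of GC content was 0.46 with mean level and 0.56 with the log2 change, as a description over members that share arrays. The 44 hairpins of lowest GC content had a median change of -0.10 and 13 positive changes, the next 44 had 0.04 and 33, and the 45 of highest GC content had 0.11 and 39. The correlation with the change was 0.51 for the 46 of these members above the background reference and 0.57 for the 87 others, and it lay between 0.48 and 0.60 under every alternative setting tried. Mir717 had a GC content of 44.0%, Mir382 39.5% and Mir19a 43.9%, all in the lowest group, and Mir708 had no hairpin in the table.

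The same relation was seen between arrays of one group. The Spearman correlation of GC content with an array's deviation from the mean of the members was -0.55 in control 1 and -0.49 in control 2 but 0.20 in control 3, and 0.12, 0.27 and 0.43 in mutants 1 to 3. Control 3 thus stood with the mutants in this respect. Mutant 3 was the highest array for 89 members (55.6%, against 42.5% of all probe sets) and control 1 the lowest for 78 (48.8%, against 26.7%). The part of base composition in the differences of single genes was not tested.

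**Figure D5:**
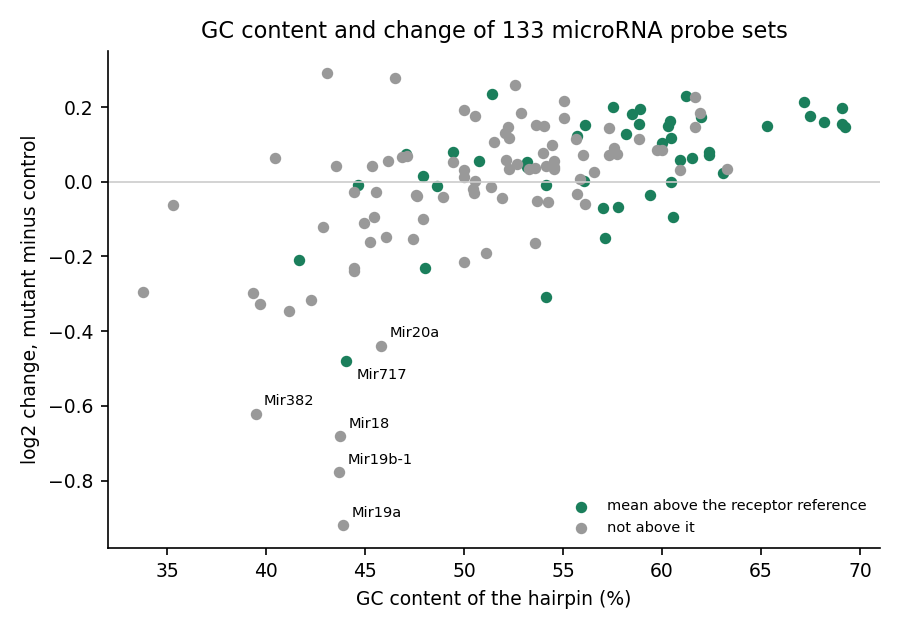
Each point is one of 133 microRNA probe sets with a hairpin in the RefSeq table, with the GC content of the hairpin in percent on the horizontal axis and the log2 change, mutant minus control, on the vertical axis. Green points are above the receptor reference; changes are mostly below 0 under a GC content of 50% and mostly above 0 over 56%.

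Of 29 seeds shared by members, 17 had members in both directions. The 144 members with a mature sequence gave 265 mature microRNAs with 223 distinct seeds, and 59 members shared a seed with another. The 4 genes of seed AAAGUGC had 2 negative and 2 positive changes, from -0.44 for Mir20a to 0.12 for Mir93. The 4 measured genes of seed ACAUUCA, the miR-181 family, ranged from -0.15 to 0.23. The 3 genes of seed AGCAGCA, Mir15a, Mir195a and Mir497, ranged from -0.41 to 0.18. Both genes of seed GUGCAAA, in the miR-17-92 cluster, were negative.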

How the data were processed

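RNA of 3 control and 3 mutant pools was measured on 1 array each. Per the submitters' processing notes, the authors derived the deposited intensity values with RMA (background correction, normalization between arrays, probe summary). Its version, the chip description and probe filters are not stated there; every deposited probe set had 2 or more arrays at 48.1 or above. Values were converted to log2 and tested over 16311 single-symbol probe sets with lmFit and eBayes (limma 3.58.1, R 4.3.3), without covariates, adjusting by Benjamini-Hochberg, at a threshold of 0.05. Changes are mutant minus control. All 160 gene IDs matched RefSeq (GRCm38.p6). A host was a gene whose span held the microRNA on its strand, read by the probe set nearest in array numbering. Named were the members called, the 8 largest rises and falls, the 8 brightest, up to 4 per list, their hosts and the called pathway genes; others were named after their values were seen. The members and lists were chosen with earlier results of these data known. The number of arrays limits precision; in simulated data, 9 false calls accompanied 50 changed probe sets at each of 4 sizes. Alternatives covered the replicate block, normalization, level filter, eBayes options, array weights, threshold and left-out arrays.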

Additional observations from a re-analysis of the deposited data

How the results depend on the processing

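The count of microRNA probe sets called lower (2) was 8 with a replicate block, 1 after the level filter, 15 with array weights, 4 at an adjusted p under 0.1, and 14 without both control 3 and mutant 3, and 0 to 2 when single arrays were left out. The count called higher (0) was 4 with array weights and 1 without control 3 and mutant 3, and 0 when single arrays were left out. For pathway genes, the count higher (0) was 1 with the block, quantile normalization, array weights, the trend with level removed, control 3 and mutant 3 left out or the threshold of 0.1, and 0 to 1 with single arrays left out. The count lower (3) was 11 with array weights, 6 without control 3 and mutant 3, 7 at 0.1, and 0 to 8 with single arrays left out. For host genes, the count higher (2) was 5 with array weights and 0 to 2 with single arrays left out, and the count lower (2) was 4 with the block, 10 with array weights, 6 without control 3 and mutant 3, 8 at 0.1 and 0 to 5 with single arrays left out. With the receptor median as the line, 128 members stood above it. The removed trend and the paired omission of arrays were chosen after the data were seen. Over all probe sets, calls ran from 50 without control 1 to 3924 with array weights, against 972. Same-numbered arrays correlated at 0.134, 0.0769 and 0.316, and control 1 correlated better with mutant 2 (0.203). Control 3 correlated with mutant 3 more than any other pair did, and at -0.275 and -0.269 with mutants 1 and 2. These values do not settle whether the replicate numbers pair the arrays. The block raised all calls to 1189. With the block, Mir17hg (limma adjusted p = 0.0211), Mir19a (0.0228), Mir19b-1 (0.0379), Mir382 (0.0146) and Mir15a (0.0212) passed, and Lin28a (0.0508) and Trim71 (0.0568) did not. The cause of these shifts was not tested.

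Changes near 0, none called, that turned sign with single arrays left out ranged from -0.0877 to 0.213 for Mir505, -0.0508 to 0.0329 for Mirlet7i, -0.157 to 0.141 for Mirlet7d, -0.0977 to 0.131 for Mir196a-2, -0.0332 to 0.156 for Mir107, -0.118 to 0.00964 for Gpc3, -0.113 to 0.0180 for Focad, the host of Mir491, and -0.00369 to 0.114 for Igf2. With array weights, Mirlet7d was 0.0774, Mir196b -0.00793, Mir196a-2 -0.118, Mir194-1 -0.00287, Mir107 -0.00576 and Focad 0.0115. After quantile normalization, Mir341 was 0.00851 and Gpc3 0.00235. With the trend removed, Mir196a-2 was -0.0229 and Mir107 -0.00203. Without control 3 and mutant 3, Mir196a-2 was -0.120, Mir194-1 -0.0495 and Mir107 -0.0330. Signal over background limits 97 of 160 members, which were not above the receptor reference, and 3 arrays a group limit the rest.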
